A study of Mus musculus with 40 samples.

Results

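The values of 10 genes that make triglyceride and load it onto chylomicrons were read in 40 RNA sequencing libraries of mouse duodenum, ileum and liver. The genes were chosen by name, as *Mttp*, *Apob*, *Dgat1*, *Dgat2*, *Mogat2*, *Gpat3*, *Gpam*, *Agpat2*, *Sar1b* and *Lpin1*, and all 10 were found among the 15958 genes of the table and passed the filter on low values in each tissue. All mice were wild type C57BL/6 males aged 8 weeks at surgery. They had either a sham operation, in which the bowel was cut and rejoined, or a small bowel resection (SBR) that left the duodenum and the terminal ileum in place. The labels give its extent as 50 to 60% of the small bowel, and the study's methods give a larger one. Daily gavage began 3 weeks after surgery and lasted 7 weeks, with vehicle in the sham mice and in 1 SBR group and with WUSTL0717 at 30 mg/kg in the other. WUSTL0717 is an amide analog of the liver X receptor (LXR) agonist GW3965, and the study gave it as a putative agonist restricted to the gut. Thus each tissue had 3 groups, sham-vehicle, SBR-vehicle and SBR-WUSTL0717, with no sham mice given the drug. Duodenum and ileum each had 3, 4 and 4 libraries, and liver had 5, 8 and 5.

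Absorbed fatty acids are re-esterified in the enterocyte along a pair of routes. In the glycerol-3-phosphate route, glycerol-3-phosphate acyltransferases (*Gpam* at the mitochondrion, *Gpat3* at the endoplasmic reticulum) add the first acyl chain, AGPAT2 adds the next and lipin 1, the product of *Lpin1*, removes the phosphate to give diacylglycerol, whereas MOGAT2 makes diacylglycerol directly from absorbed monoacylglycerol. DGAT1 and DGAT2 add the last chain, microsomal triglyceride transfer protein (*Mttp*) loads the product onto apolipoprotein B (*Apob*), and the GTPase SAR1B drives the coat vesicles that carry the particle out of the endoplasmic reticulum. The liver uses much of the same machinery to make very low density lipoprotein.

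Values are log2(TPM + 1), where TPM is transcript abundance per unit of gene length scaled to the library's total, as batch corrected by the authors. Fold values are 2 raised to the log2 difference, so they are ratios of TPM + 1 after that correction and not of TPM. They depart most from ratios of TPM at low levels, such as those of *Gpat3* in sham duodenum (0.92 to 2.40). Because the 22 intestinal libraries were batch 1 and the 18 liver libraries batch 2, tissue and batch cannot be told apart between gut and liver, so levels were compared only within a batch, and sizes of change in liver are not on the same scale as those in gut. The duodenal marker *Pdx1* lay between 3.89 and 4.81 in the duodenal libraries and between -0.94 and 0.47 in the ileal ones, and the ileal bile acid transporter *Slc10a2* between 0.53 and 0.95 in duodenum and 4.42 and 7.19 in ileum, so the labelled regions matched their markers. A total of 7 libraries stood apart. Pancreatic acinar genes were high in duodenal sham replicate 1, SBR-vehicle replicate 2 and SBR-WUSTL0717 replicates 1 and 4. The hepatocyte gene *Alb* reached 12.70 in ileal SBR-WUSTL0717 replicate 2, hepatocyte genes were low in liver SBR-vehicle replicate 2, and acinar genes were high in liver SBR-vehicle replicate 7. These 7 were chosen after seeing the data, and in duodenum acinar levels ran on without a clear gap, the mean over 7 acinar genes being at least 6.63 in the 4 libraries and up to 6.33 in the rest. Values without these libraries are given beside many of the results, but not beside every result that they changed. The labels do not say that each library came from a separate mouse, so p-values measure the spread between libraries, and read depth is unknown.

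In GRCm38, *Gpam* lies on the minus strand at chr19:55067268-55127238, *Gpat3* on the plus strand at chr5:100845713-100899102, *Agpat2* on the minus strand at chr2:26593057-26604417 and *Lpin1* on the minus strand at chr12:16535669-16610966. *Dgat2* (chr7:99153658-99182719) and *Mogat2* (chr7:99219084-99238619) are neighbours on the minus strand with 36364 bases between them. *Dgat1* lies at chr15:76502015-76511953 and *Mttp* at chr3:138089854-138144968, both on the minus strand, with *Apob* at chr12:7977648-8016835 and *Sar1b* at chr11:51763687-51791925 on the plus strand. Genes on the opposite strand share exonic bases with *Mttp*, *Mogat2*, *Gpat3* and *Agpat2* (*Trmt10a*, *Gm45012*, *4930458D05Rik* and *Egfl7*, among others). Whether reads were counted by strand is not given in the sources used here, so the part of these neighbours in the values of the 4 genes was not tested.

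RefSeq (GRCm38.p6) gave a promoter entry for 7 of the 10 genes. Sequence upstream of the start is printed for the genes that acylate glycerol-3-phosphate and its product, since *Gpat3* and *Agpat2* were each called in at least 1 comparison with sham and *Gpam* was called between duodenum and ileum after SBR. The stretches contain no exon of a protein-coding gene. Capitals mark matches, on either strand, to the nuclear receptor motif AGGTCA, to the direct repeat with 4 spacer bases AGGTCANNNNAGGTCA with up to 2 mismatches, which is the arrangement LXR binds with its partner RXR, to AGGTCANAGGTCA with up to 2 mismatches, and to the sterol regulatory element TCACNCCAC with up to 1. The repeats contain the shorter motif and can overlap it. The *Gpat3* stretch is chr5:100845979-100846129 on the plus strand, the *Agpat2* stretch chr2:26604418-26604667, and those of the 2 *Gpam* starts chr19:55127239-55127488 and chr19:55099478-55099727, all 3 on the minus strand.
Gpat3: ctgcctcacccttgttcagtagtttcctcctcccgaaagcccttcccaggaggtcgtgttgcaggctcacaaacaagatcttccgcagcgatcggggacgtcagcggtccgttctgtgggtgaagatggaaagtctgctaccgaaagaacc
Agpat2: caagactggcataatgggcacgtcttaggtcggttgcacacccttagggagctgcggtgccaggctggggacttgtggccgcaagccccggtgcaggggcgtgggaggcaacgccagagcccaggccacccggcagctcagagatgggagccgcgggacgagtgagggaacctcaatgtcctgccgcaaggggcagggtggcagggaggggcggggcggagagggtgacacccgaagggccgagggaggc
Gpam, start 1: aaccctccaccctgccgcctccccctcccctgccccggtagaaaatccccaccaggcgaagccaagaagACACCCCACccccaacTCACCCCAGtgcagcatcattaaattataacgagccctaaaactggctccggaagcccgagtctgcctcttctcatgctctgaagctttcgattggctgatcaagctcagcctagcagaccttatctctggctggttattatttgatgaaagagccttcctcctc
Gpam, start 2: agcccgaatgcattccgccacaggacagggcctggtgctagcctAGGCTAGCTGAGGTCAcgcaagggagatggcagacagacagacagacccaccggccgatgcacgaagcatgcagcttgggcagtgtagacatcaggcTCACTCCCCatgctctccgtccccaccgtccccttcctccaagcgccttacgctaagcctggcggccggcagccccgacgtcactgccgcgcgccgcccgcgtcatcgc
No match occurred in the *Gpat3* or *Agpat2* stretch. Upstream of the *Gpam* starts there were 3 sterol regulatory element matches and, at start 2, 1 direct repeat of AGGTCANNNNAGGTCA that holds an AGGTCA. Among 32851 mouse promoter entries, 20.7% held a match to the sterol regulatory element, 14% to AGGTCA, 2.57% to the repeat with 4 spacer bases and 3.24% to the repeat with 1. A match describes the letters only.

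The first comparison asked what resection did to these genes in the duodenum, upstream of the resected segment. After SBR, 6 of the 10 genes were higher in all 4 SBR-vehicle libraries than in all 3 sham libraries (*Gpat3*, *Dgat2*, *Sar1b*, *Dgat1*, *Mttp* and *Mogat2*) and none lay wholly below sham, whereas 3.41% of all 15093 genes tested were wholly higher and 6.24% wholly lower. None of the 10 passed the test, and neither did any other gene (0 of 15093, 0% called, limma with Benjamini-Hochberg adjustment). At an unadjusted p under 0.05 there were 6 of the 10 and 2426 of all genes (16.1%), and an unmoderated test of the 2 groups alone called 1 gene and none of the 10. The median log2 fold change was 1.04 over the 10 genes and -0.36 over all genes.

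*Gpat3* had the largest fitted value of the 10 genes. Its levels were 1.24, 2.40 and 0.92 in the sham libraries and 4.11, 3.47, 4.78 and 3.77 with SBR-vehicle, a log2 fold change of 2.51 ± 0.44 (SE) with an adjusted p of 0.107. The highest sham library and the lowest SBR-vehicle library were more than 1 log2 unit apart. *Gpam*, which encodes the mitochondrial enzyme for the same reaction, had 4.45, 4.40 and 3.89 in sham and 4.19, 2.69, 2.43 and 3.05 after SBR (-1.15 ± 0.46, adjusted p = 0.281), and its groups overlapped through SBR-vehicle replicate 1. The fitted values of these isozymes therefore had opposite signs, though neither passed the test.

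For the final acylation, *Dgat2* was at 6.27, 7.76 and 8.23 in sham and at 9.73, 10.14, 9.71 and 9.41 with SBR-vehicle (2.33 ± 0.51, adjusted p = 0.19). *Dgat1* was at 4.54, 5.80 and 5.88 and then at 6.92, 6.99, 7.07 and 7.11 (1.62 ± 0.42, adjusted p = 0.245). In both genes the lowest sham value was replicate 1, a library with high acinar genes, and without the libraries that stood apart the values were 1.63 for *Dgat2* and 1.19 for *Dgat1*. *Mogat2*, their partner in the monoacylglycerol route, had 4.11, 4.52 and 4.53 in sham and 5.14, 4.79, 4.91 and 4.72 after SBR (0.50 ± 0.34, adjusted p = 0.441), a separation of less than 1 log2 unit. *Agpat2* (0.65 ± 0.48, or 0.37 without the libraries that stood apart) and *Lpin1* (-0.57 ± 0.44) overlapped between the groups.

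Among the assembly genes, *Sar1b* was at 5.27, 6.55 and 4.41 in sham and 7.48, 8.16, 7.14 and 6.85 with SBR-vehicle (2.00 ± 0.63, adjusted p = 0.274). *Mttp* was at 7.23, 8.18 and 7.11 and then at 8.91, 8.80, 9.04 and 8.99 (1.43 ± 0.40, adjusted p = 0.271), and its SBR-vehicle libraries lay close together. *Apob*, the particle's protein backbone, did not separate. Its sham values ranged from 6.92 to 10.58 and its SBR values from 7.72 to 10.45 (0.19 ± 0.80, adjusted p = 0.92), and that interval, from -1.56 to 1.94, leaves room for a change of either sign. Without the libraries that stood apart *Apob* was at -0.30.

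Marker sums add TPM over a list before taking log2, so the most abundant markers weigh most. Beside these values, the summed level of 5 leukocyte markers was 6.57 to 7.18 in the sham duodenum and 4.69 to 6.42 with SBR-vehicle, with no overlap. Of the 5, *Lyz2* (6.23 to 6.58 and 4.09 to 5.64) and *Cd79a* (2.80 to 2.97 and 2.01 to 2.64) were wholly lower, and *Ptprc*, *Cd3e* and *Cd68* overlapped. The 7 epithelial markers summed to 8.08 to 8.79 and to 8.33 to 9.32, which overlapped, and no marker of either list lay below 1 in every library of a group. The 4 ileal markers summed to 3.67 to 3.91 and to 4.08 to 4.87, with no overlap, and 2 of them lay below 1 in every library of each group. The part of cell composition was not tested, and in bulk tissue a change in the number of a cell type and a change in RNA per cell cannot be told apart. When each library was centred on its median gene, 2 of the 10 were called higher, *Gpat3* at 2.91 and *Dgat2* at 2.74 (0.61% of all genes called higher).

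**Figure D1:**
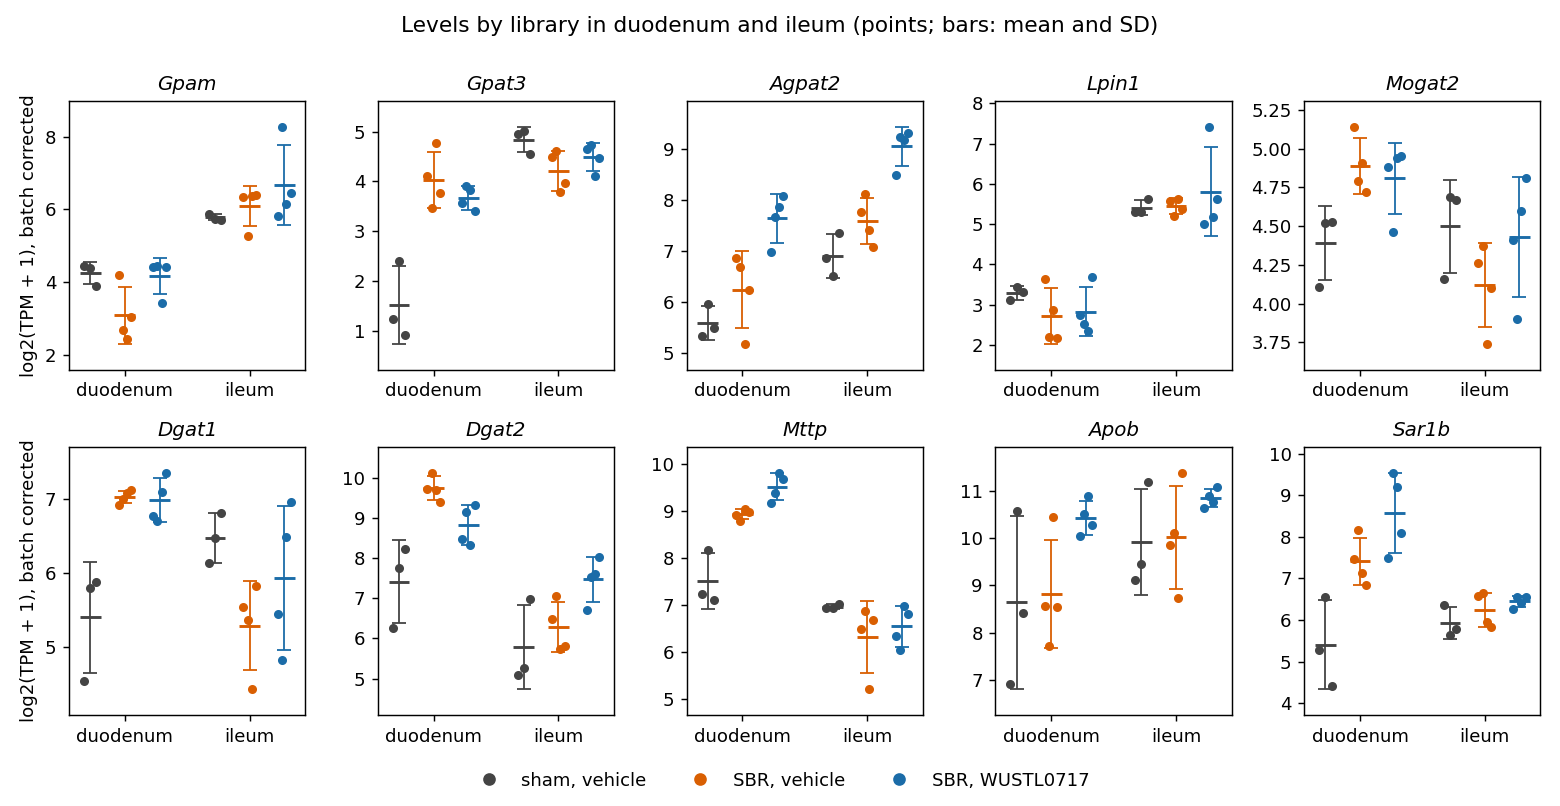
Level of each of the 10 genes in the intestine, as log2(TPM + 1) after batch correction on the y axis, with one point per library and bars for the mean and SD of sham-vehicle, SBR-vehicle and SBR-WUSTL0717 in duodenum (n = 3, 4 and 4) and ileum (n = 3, 4 and 4). In duodenum the sham points of *Gpat3*, *Dgat1*, *Dgat2*, *Mttp* and *Sar1b* lie below all SBR-vehicle points, and in ileum the SBR-WUSTL0717 points of *Agpat2* lie above all others.

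The next comparison asked what WUSTL0717 did in the resected duodenum. None of the 10 genes passed the test (limma), against 39 of 15093 genes (0.258%). At an unadjusted p under 0.05 there were 2 of the 10 (*Agpat2* and *Gpam*) and 802 of all genes (5.31%), and the unmoderated test called none of the 10 and 2 genes in all. The reference LXR target *Abca1*, a cholesterol efflux transporter, rose by 3.55 ± 0.50 log2 units (adjusted p = 0.0136). Without the libraries that stood apart 0 of 15093 genes were called here, so that the *Abca1* call was lost as well. *Agpat2* had 6.86, 6.69, 5.18 and 6.23 with vehicle and 6.97, 7.67, 7.85 and 8.08 with WUSTL0717 (1.40 ± 0.45, adjusted p = 0.509). Every treated library lay above every vehicle library, the nearest pair being 6.97 and 6.86. *Mttp* also lay wholly higher, at 9.18, 9.39, 9.82 and 9.68 against the vehicle values above (0.58 ± 0.37, adjusted p = 1). *Dgat2* lay wholly lower, at 8.49, 9.15, 8.34 and 9.34 (-0.92 ± 0.47, adjusted p = 1). These 3 separations compare with 2.11% of all genes wholly higher and 1.05% wholly lower.

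*Gpam* had a log2 fold change of 1.09 ± 0.43 (adjusted p = 0.776), with 3 treated libraries at 4.41 to 4.44 and replicate 3 at 3.44. *Apob* was at 8.57, 7.72, 10.45 and 8.55 with vehicle and at 10.05, 10.51, 10.89 and 10.28 with WUSTL0717 (1.61 ± 0.74, adjusted p = 0.946). The groups overlapped only through vehicle replicate 3. *Sar1b* gave 1.17 ± 0.59, and its treated libraries ran from 7.49 to 9.55. Without the libraries that stood apart *Sar1b* was at 2.22 ± 0.72, *Gpam* at 0.71 ± 0.64 and *Lpin1* at -0.47 ± 0.53. *Lpin1*, *Dgat1*, *Mogat2* and *Gpat3* were between -0.36 and 0.10, with intervals that reached from -1.23 to 1.00.

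Treated resected duodenum was also set against sham, a contrast that holds surgery and drug together and shares its sham libraries with the first. Here 3 of the 10 genes rose, where 0.749% of all 15093 genes were called higher and 0.802% in either direction. *Sar1b* rose by 3.17 ± 0.63 log2 units, or 9.01-fold (adjusted p = 0.0432). *Gpat3* rose by 2.16 ± 0.44, or 4.45-fold (adjusted p = 0.0445). *Mttp* rose by 2.01 ± 0.40, or 4.03-fold (adjusted p = 0.0432). The treated libraries of these 3 genes lay wholly above sham, and so did those of *Agpat2* (2.05 ± 0.48, adjusted p = 0.0864), *Dgat1* (1.57 ± 0.42, adjusted p = 0.132) and *Dgat2* (1.41 ± 0.51, adjusted p = 0.224), where 5.58% of all genes did. After centring, *Agpat2* (2.42) and *Dgat1* (1.94) were called too, where 2.41% of all genes were called higher. *Gpam* was at -0.07 ± 0.46 (adjusted p = 0.951), *Apob* at 1.80 ± 0.80, *Mogat2* at 0.42 ± 0.34 and *Lpin1* at -0.46 ± 0.44. Without sham replicate 1 *Dgat2* was at 0.84 and *Apob* at 0.94, without sham replicate 2 *Apob* was at 2.77, and without the libraries that stood apart *Dgat2* was at 0.75. The 5 leukocyte markers summed to 5.13 to 6.22 in the treated duodenum, below the 6.57 to 7.18 of sham with no overlap, the 4 ileal markers to 4.03 to 4.47, above sham with no overlap, and their part in these values was not tested. The 3 calls rest on few libraries: 0 were left without sham replicate 1 or 3 or SBR-WUSTL0717 replicate 2, 3 or 4, 1 without SBR-WUSTL0717 replicate 1, and 0 without the libraries that stood apart, where the values were 3.90, 2.21 and 1.96 for *Sar1b*, *Gpat3* and *Mttp*. With the replicate block and with the unmoderated test 0 of the 10 genes were called, and on the log2(TPM + 5) scale 1 was.

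In the ileum beyond the anastomosis, resection alone moved none of these genes past the test (limma, 55 of 15772 genes called, 0.349%). At an unadjusted p under 0.05 there were 2 of the 10 (*Dgat1* and *Gpat3*) and 1334 of all genes (8.46%), and the unmoderated test called none of the 10 and 5 genes in all. *Dgat1* was at 6.13, 6.47 and 6.81 in sham and at 5.54, 5.36, 4.43 and 5.82 with SBR-vehicle (-1.18 ± 0.49, adjusted p = 0.515). *Mttp* was at 6.95, 6.94 and 7.03 in sham and at 6.49, 6.88, 5.21 and 6.69 after SBR (-0.65 ± 0.40, adjusted p = 0.775). These were the only members whose groups did not overlap, both with SBR lower, against 2.77% of all genes wholly lower and 6.73% wholly higher. In both, the lowest library was SBR-vehicle replicate 3, and without it *Mttp* was at -0.28. *Gpat3* had 4.95, 5.01 and 4.55 in sham and 4.49, 4.60, 3.79 and 3.96 after SBR (-0.63 ± 0.28, adjusted p = 0.585), with an overlap of a single library. *Agpat2* (0.69 ± 0.35) and *Dgat2* (0.50 ± 0.51) overlapped between the groups, as did *Mogat2* (-0.39 ± 0.29), *Sar1b* (0.32 ± 0.30) and *Gpam* (0.32 ± 0.51), and *Apob* (0.10 ± 0.61) and *Lpin1* (0.04 ± 0.48) lay near 0 with wide errors. The 4 ileal markers summed to 7.03 to 7.33 in sham and 8.68 to 8.99 with SBR-vehicle, the 5 duodenal markers to 4.92 to 5.25 and 3.68 to 4.83, and the 1 adipocyte marker of 6 that had values was at 0.00 to 3.27 and 3.83 to 4.55, none of them overlapping, and their part in these values was not tested. Of the duodenal markers only *Gata4* fell with no overlap (4.68 to 5.05 in sham, 1.42 to 3.77 after SBR). *Slc40a1* (1.76 to 2.33 and 3.19 to 3.65) and *Cybrd1* (0.35 to 0.54 and 0.59 to 0.91) were wholly higher, and *Pdx1* and *Onecut2* overlapped.

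With WUSTL0717 in the resected ileum, *Agpat2* again separated fully. Its levels were 7.76, 8.12, 7.40 and 7.08 with vehicle and 8.48, 9.22, 9.16 and 9.30 with the drug (1.45 ± 0.32, adjusted p = 0.31, exact two-sided permutation p = 0.0286, the smallest that 4 libraries against 4 allow). It was the only 1 of the 10 with no overlap, against 2.56% of all genes wholly higher. *Dgat2*, at 6.49, 7.07, 5.74 and 5.82 with vehicle and 6.71, 7.54, 7.62 and 8.04 with WUSTL0717, had a log2 fold change of 1.20 ± 0.47 (adjusted p = 0.644). All 10 genes had a value above 0, between 0.21 and 1.45, with a median of 0.47, whereas 7944 of 15772 genes were above 0 and the median of all was 0.00. Without the library with high *Alb*, 9 of the 10 were above 0, with *Lpin1* at -0.17, *Gpam* at 0.05 and *Dgat1* at 1.01. None of the 10 passed the test (limma, 11 of 15772 genes called, 0.0697%). At an unadjusted p under 0.05 there were *Agpat2* and *Dgat2* and 1083 of all genes (6.87%), and the unmoderated test called none of the 10 and 1 gene in all. *Abca1* rose by 2.79 ± 0.34 (adjusted p = 0.0165).

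*Gpam* and *Lpin1* reached 8.26 and 7.41 in ileal SBR-WUSTL0717 replicate 2, the library with high *Alb*, while the other treated libraries lay between 5.83 and 6.46 for *Gpam* and 5.01 and 5.63 for *Lpin1*. Their log2 fold changes were 0.58 ± 0.47 and 0.36 ± 0.44. *Dgat1* (0.64 ± 0.46), *Mogat2* (0.32 ± 0.26), *Mttp* (0.23 ± 0.37), *Sar1b* (0.21 ± 0.28) and *Gpat3* (0.28 ± 0.26) all overlapped between the groups. *Apob* was at 9.86, 10.12, 8.73 and 11.39 with vehicle and at 10.65, 10.89, 10.77 and 11.09 with WUSTL0717 (0.83 ± 0.56, adjusted p = 0.879).

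Against sham, treated resected ileum showed 1 of the 10 genes called, where 1.66% of all genes were called higher and 2.17% in either direction. *Agpat2* rose by 2.14 ± 0.35 log2 units, or 4.41-fold (adjusted p = 0.0109), from 6.85, 6.50 and 7.35 in sham. The nearest sham and treated libraries were more than 1 log2 unit apart. Without the library with high *Alb* it was at 2.08 and still called, and it was no longer called without sham replicate 1 or 2, with the replicate block or with the unmoderated test. *Dgat2* was at 1.70 ± 0.51 (adjusted p = 0.123) and overlapped with sham, whose replicate 3 stood at 6.99 beside 5.09 and 5.26. Without that library *Dgat2* was at 2.30 and called. The 7 epithelial markers summed to 9.33 to 9.61 in sham and 9.99 to 10.52 with WUSTL0717, the 4 ileal markers to 7.03 to 7.33 and 8.41 to 9.24, and the 5 leukocyte markers to 8.21 to 9.58 and 7.68 to 8.19. The adipocyte marker was at 0.00 to 3.27 in sham and 4.35 to 6.62 with WUSTL0717, and the 5 duodenal markers summed to 4.92 to 5.25 and 4.09 to 4.56. Of the duodenal markers *Gata4* (4.68 to 5.05 and 0.42 to 4.24) and *Onecut2* were wholly lower and the others overlapped. Of the leukocyte markers only *Lyz2* did not overlap (7.98 to 9.47 and 7.24 to 7.91). None of these 5 lists overlapped between the groups, and their part in these values was not tested. Of the other members, *Gpam* was at 0.90 ± 0.51, *Apob* at 0.93 ± 0.61, *Sar1b* at 0.52 ± 0.30, *Lpin1* at 0.40 ± 0.48, *Mogat2* at -0.07 ± 0.29, *Gpat3* at -0.35 ± 0.28, *Mttp* at -0.42 ± 0.40 and *Dgat1* at -0.54 ± 0.49, and all overlapped with sham. Without the library with high *Alb*, *Gpam* was at 0.37, *Dgat1* at -0.17, *Lpin1* at -0.14 and *Mogat2* at 0.10.

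**Figure D2:**
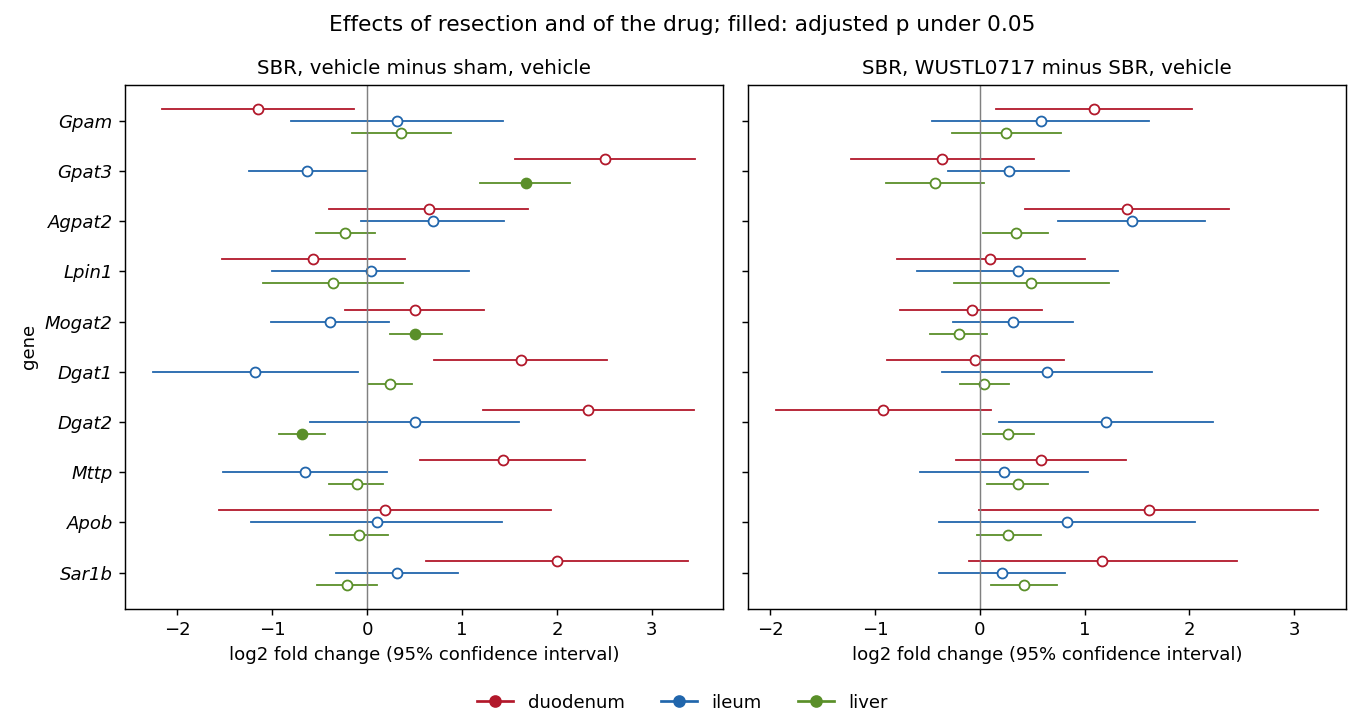
Log2 fold change of each of the 10 genes (x axis, with 95% confidence intervals) for SBR-vehicle minus sham-vehicle, left, and SBR-WUSTL0717 minus SBR-vehicle, right, in duodenum, ileum and liver; filled points have an adjusted p under 0.05 (limma), and sizes in liver are on another scale because of the batch correction. Only *Gpat3*, *Mogat2* and *Dgat2* in the liver after SBR are filled, and *Agpat2* lies near 1.4 in both parts of the intestine on the right.

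In the liver, resection changed 3 of the 10 genes, while 41.9% of all 15901 genes were called (37.4% higher and 4.47% lower). *Gpat3* ranged from 2.50 to 3.65 in sham (median 2.97) and from 3.87 to 5.31 with SBR-vehicle (median 4.73). It rose by 1.67 ± 0.23 log2 units, or 3.18-fold (adjusted p = 1.01e-05). *Mogat2* ranged from 4.01 to 4.41 (median 4.25) and then from 4.44 to 5.18 (median 4.65). It rose by 0.51 ± 0.13, or 1.43-fold (adjusted p = 0.004). *Dgat2* ranged from 8.64 to 9.16 (median 8.95) and then from 7.95 to 8.50 (median 8.26). It fell by 0.69 on the log2 scale (SE 0.12, 1.61-fold lower, adjusted p = 0.000111). All 8 SBR-vehicle libraries lay on 1 side of all 5 sham libraries for each of these genes (exact two-sided permutation p = 0.00155 each, the smallest possible here), where 15.6% of all genes lay wholly higher and 1.62% wholly lower.

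A shift over all genes stood beside these changes. The median log2 fold change over all genes was 0.25, against -0.10 over the 10, and after centring each library on its median gene *Mogat2* was at 0.21 and no longer called. The centred calls were 6 of the 10, where 20.4% of all genes were called higher and 28.8% lower. *Gpat3* was higher at 1.36, and *Dgat2* (-0.99), *Agpat2* (-0.53), *Sar1b* (-0.52), *Mttp* (-0.42) and *Apob* (-0.40) were lower. Without centring, *Agpat2* was at -0.23 ± 0.15, *Sar1b* at -0.21 ± 0.15, *Mttp* at -0.11 ± 0.14 and *Apob* at -0.09 ± 0.15, and none of these was called. *Dgat1* was at 0.24 ± 0.11 (adjusted p = 0.0854), *Gpam* at 0.36 ± 0.25 and *Lpin1* at -0.36 ± 0.35. SBR-vehicle replicate 2, with low hepatocyte genes and the lowest median over all genes in its group (3.13), held the lowest value of its group in *Gpam*, *Gpat3*, *Agpat2*, *Dgat1*, *Dgat2*, *Mttp*, *Apob* and *Sar1b*. Without it 5 of the 10 genes were called. The same number was called without the libraries that stood apart, where 8418 of all 15901 genes were.

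Markers of other cell types moved with the surgery in liver. The 5 stellate and fibroblast markers summed to 5.96 to 6.64 in sham and 8.17 to 8.98 with SBR-vehicle, 5 leukocyte markers to 6.84 to 7.36 and 7.68 to 8.59, and the 7 epithelial markers to 8.98 to 9.20 and 9.53 to 10.23, none of them overlapping. The adipocyte marker was at 2.61 to 4.60 and 1.46 to 1.95, lower with no overlap. Hepatocyte markers summed to 11.11 to 11.58 and 10.25 to 11.35, which overlapped. No marker of these 5 lists lay below 1 in every library of a group, but in liver that check could not tell an absent marker. The lowest liver values of the epithelial markers *Alpi* and *Cdx2* were 5.14 and 3.48, each shared by many libraries. The part of these lists in the 3 calls was not tested.

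WUSTL0717 changed none of the 10 genes in the resected liver by the test (limma, 652 of 15901 genes called, 4.1%). At an unadjusted p under 0.05 there were 4 of the 10 and 2738 of all genes (17.2%), and the unmoderated test called no gene at all. *Sar1b* ranged from 6.59 to 7.72 (median 7.47) with vehicle and from 7.68 to 8.00 (median 7.75) with the drug (0.42 ± 0.15, adjusted p = 0.135). *Mttp* was at 0.36 ± 0.14 (adjusted p = 0.159), *Agpat2* at 0.34 ± 0.15 (adjusted p = 0.24), *Dgat2* at 0.27 ± 0.12 (adjusted p = 0.217) and *Apob* at 0.27 ± 0.15 (adjusted p = 0.359). These 5 genes were called higher after centring, where 11.5% of all genes were. *Gpat3* was at -0.43 ± 0.23 (adjusted p = 0.345), and its treated libraries, from 3.94 to 4.97, lay within the vehicle range. *Lpin1* was at 0.49 ± 0.35, *Gpam* at 0.25 ± 0.25, *Dgat1* at 0.04 ± 0.11 and *Mogat2* at -0.20 ± 0.13. *Abca1* was at 0.07 ± 0.14 (adjusted p = 0.877) in the liver, with an interval from -0.22 to 0.36.

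Against sham, the treated resected liver had *Gpat3* higher by 1.23 ± 0.25 (2.35-fold, adjusted p = 0.00202) and *Dgat2* lower by a log2 fold change of -0.41 ± 0.13 (1.33-fold lower, adjusted p = 0.0241), where 27.9% of all genes were called higher and 0.906% lower (28.8% in all). *Gpat3* did not overlap with sham, and *Dgat2* did. The *Dgat2* call was lost without sham replicate 4 or SBR-WUSTL0717 replicate 1, 4 or 5. *Mttp* also lay wholly above sham, at 8.46 to 8.66 against 8.20 to 8.42 (0.25 ± 0.15, adjusted p = 0.205), as 27.4% of all genes did, but the shift over all genes was 0.27 and *Mttp* was at -0.05 after centring. *Mogat2* was at 0.31 ± 0.14 (adjusted p = 0.108), *Gpam* at 0.61 ± 0.28 (adjusted p = 0.0989) and *Dgat1* at 0.29 ± 0.12 (adjusted p = 0.0825). *Sar1b* (0.21 ± 0.17), *Apob* (0.18 ± 0.16), *Lpin1* (0.12 ± 0.39) and *Agpat2* (0.11 ± 0.16) were not called either. Without the libraries that stood apart, all of them SBR-vehicle libraries in liver, *Gpam* and *Dgat1* were called as well. Beside these values the 5 stellate and fibroblast markers summed to 5.96 to 6.64 in sham and 7.27 to 8.28 in treated liver, the 5 leukocyte markers to 6.84 to 7.36 and 7.73 to 8.37, the 7 epithelial markers to 8.98 to 9.20 and 9.36 to 10.04 and the 4 ileal markers to 5.48 to 5.83 and 6.12 to 6.52. None of these 4 lists overlapped, the hepatocyte sums did (11.11 to 11.58 and 11.13 to 11.62), and their part in the calls was not tested. The ileal marker *Fabp6* stood at 3.26, its lowest liver value, in many of the liver libraries.

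**Figure D3:**
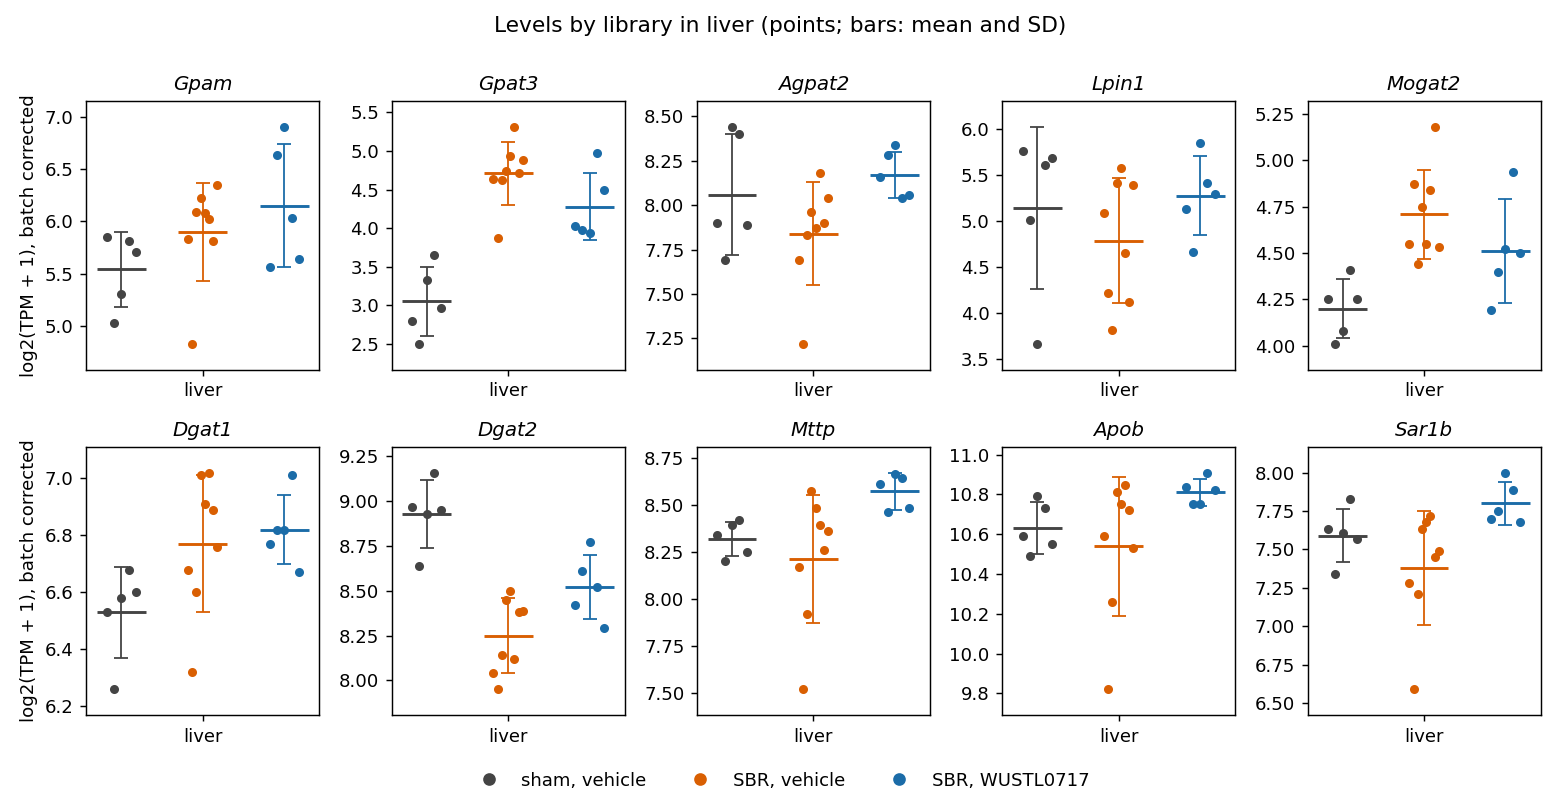
Level of each of the 10 genes in liver, as log2(TPM + 1) after batch correction on the y axis, with one point per library and bars for the mean and SD of sham-vehicle (n = 5), SBR-vehicle (n = 8) and SBR-WUSTL0717 (n = 5). All SBR-vehicle points of *Gpat3* and *Mogat2* lie above the sham points, those of *Dgat2* lie below, and 1 SBR-vehicle library lies apart at the bottom for *Sar1b* (6.59), *Apob* (9.82) and *Mttp* (7.52).

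Duodenum and ileum libraries were all labelled batch 1, so their levels could be compared within each group. Cell type markers separated the regions as well. The 5 leukocyte markers summed to 6.57 to 7.18 in duodenum and 8.21 to 9.58 in ileum in sham, to 4.69 to 6.42 and 7.66 to 9.18 with SBR-vehicle and to 5.13 to 6.22 and 7.68 to 8.19 with SBR-WUSTL0717. The 7 epithelial markers summed to 8.08 to 8.79 and 9.33 to 9.61, to 8.33 to 9.32 and 9.42 to 10.11 and to 8.27 to 9.03 and 9.99 to 10.52. Smooth muscle markers were lower in duodenum with no overlap after SBR (4.72 to 6.98 against 7.22 to 8.17) and with WUSTL0717 (5.54 to 6.80 against 6.85 to 8.33), as was the adipocyte marker (0.00 to 1.51 against 3.83 to 4.55, and 0.00 to 2.08 against 4.35 to 6.62). Stellate and fibroblast markers were lower with no overlap only after SBR (5.44 to 7.01 against 7.55 to 8.51). The hepatocyte sum was higher with no overlap only in sham (10.92 to 11.12 against 10.35 to 10.74), but its members did not move together. *Cps1* (9.97 to 10.39 against 8.22 to 9.69) and *Ttr* were wholly higher in sham duodenum. *Alb* (6.29 to 7.83 against 9.18 to 9.61), *Tat* and *Serpina1c* were wholly lower, and *Apoh* and *Hpx* overlapped. Acinar markers summed to 4.34 to 10.71 in duodenum and lay below 1 in every ileal library. The part of these markers in the regional values was not tested.

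In sham mice 2 of the 10 genes differed, while 14.6% of all 15923 genes did, and the median gene was lower in duodenum by a log2 fold change of -0.52. *Gpat3* was 9.97-fold lower in duodenum (log2 fold change -3.32 ± 0.39, adjusted p = 3.59e-06), at 1.52 ± 0.78 (SD, n = 3) against 4.84 ± 0.25 (SD, n = 3). *Lpin1* was 4.35-fold lower (-2.12 ± 0.51, adjusted p = 0.00692). *Agpat2* (-1.31 ± 0.45, adjusted p = 0.0549), *Gpam* (-1.53 ± 0.54, adjusted p = 0.059) and *Dgat1* (-1.07 ± 0.50, adjusted p = 0.146) lay wholly lower in duodenum without passing the test, as did the 2 called genes and 30.8% of all genes, whereas *Dgat2* was at 1.63 ± 0.56 (adjusted p = 0.0531). After centring, *Dgat2* was at 2.09 and called higher, as were 7.39% of all genes. It was also called without ileal sham replicate 3 (2.24), without duodenal sham replicate 1 and without the libraries that stood apart (2.21 in both), so that 3 of the 10 were called in the last case. *Mttp* was the only member wholly higher in duodenum (0.53 ± 0.43, adjusted p = 0.396), where 7.13% of all genes were, and was at 0.20 without duodenal sham replicate 2. Without the libraries that stood apart *Dgat1* was at -0.63 and *Apob* at -0.43. *Apob* (-1.29 ± 0.80), *Sar1b* (-0.52 ± 0.54) and *Mogat2* (-0.12 ± 0.31) overlapped between the regions.

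After SBR with vehicle, 8 of the 10 differed between the regions, where 56.9% of all genes did (6.77% higher in duodenum and 50.2% lower). In duodenum *Dgat2* was higher by 3.47 ± 0.48 (11.1-fold, adjusted p = 1.39e-05), *Mttp* by 2.62 ± 0.37 (6.14-fold, adjusted p = 1.58e-05), *Dgat1* by 1.73 ± 0.43 (adjusted p = 0.0022), *Sar1b* by 1.17 ± 0.47 (adjusted p = 0.0384) and *Mogat2* by 0.77 ± 0.27 (adjusted p = 0.0193). Lower in duodenum were *Gpam* (-3.00 ± 0.47, adjusted p = 4.19e-05), *Lpin1* (-2.72 ± 0.44, adjusted p = 6.05e-05) and *Agpat2* (-1.35 ± 0.39, adjusted p = 0.00644). The median gene was at -0.98, and after centring *Agpat2* was at -0.42 and no longer called, while the other 7 were. *Sar1b* was not called without ileal replicate 3 or 4 or duodenal replicate 1 or 2 of SBR-vehicle, nor without the libraries that stood apart (0.91), which left 7 of the 10 called, and *Mogat2* was not called without ileal replicate 3. *Gpat3* was at -0.18 ± 0.34 and *Apob* at -1.20 ± 0.69, and neither was called.

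With WUSTL0717 the regions differed in 8 genes as well, where 55.9% of all genes did and the median gene was at -0.95. *Mttp* (2.97 ± 0.37), *Sar1b* (2.13 ± 0.47), *Dgat2* (1.35 ± 0.48) and *Dgat1* (1.05 ± 0.43) were higher in duodenum, with adjusted p from 2.87e-06 to 0.0431. *Lpin1* (-2.98 ± 0.44), *Gpam* (-2.49 ± 0.47), *Agpat2* (-1.40 ± 0.39) and *Gpat3* (-0.81 ± 0.34) were lower, with adjusted p from 2.07e-05 to 0.0463, but after centring *Gpat3* was at 0.07 and *Agpat2* at -0.51 and neither was called, while *Mogat2* (0.37 ± 0.27) was at 1.26 and called. *Apob* was at -0.42 ± 0.69. *Dgat1* was not called without ileal replicate 1 or 2 or duodenal replicate 3 or 4, with values down to 0.68, *Dgat2* was not called without ileal replicate 1 or duodenal replicate 2 or 4, and *Gpat3* was called only in the absence of ileal replicate 3 when 1 library was left out. The calls fell to 5 without ileal SBR-WUSTL0717 replicate 1 or duodenal SBR-WUSTL0717 replicate 4, and to 4 (*Sar1b*, *Lpin1*, *Gpam* and *Mttp*) without the libraries that stood apart, where *Sar1b* was at 2.96.

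**Figure D4:**
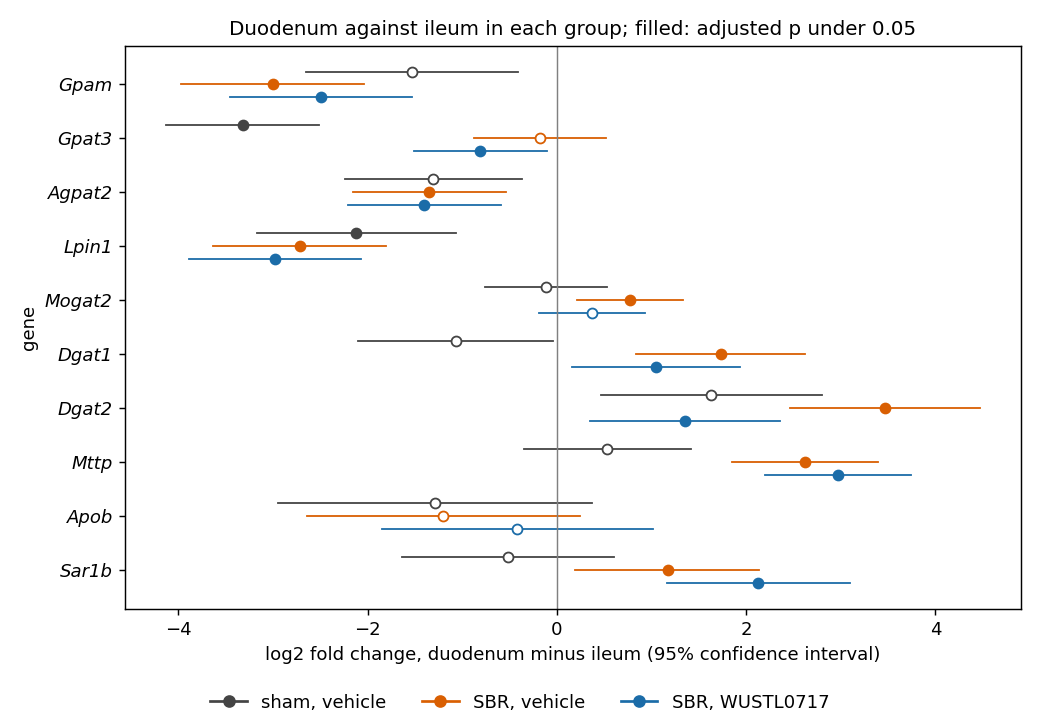
Log2 fold change of duodenum minus ileum for each of the 10 genes (x axis, with 95% confidence intervals) in sham-vehicle, SBR-vehicle and SBR-WUSTL0717; filled points have an adjusted p under 0.05 (limma). *Lpin1* and *Gpam* lie left of 0 in every group, *Dgat2* right of 0 in every group, and *Gpat3* moves from -3.32 in sham to -0.18 after SBR.

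The difference between the regional effects was tested directly. For SBR-vehicle against sham, *Gpat3* differed by 3.14 ± 0.52 between duodenum and ileum (adjusted p = 0.019), from 2.51 in duodenum and -0.63 in ileum. It was the only 1 of the 10 called, among 12 of 15923 genes (0.0754%). *Dgat1* differed by 2.80 ± 0.66 (adjusted p = 0.111) and *Mttp* by 2.08 ± 0.57 (adjusted p = 0.185), both higher after SBR in duodenum and lower in ileum with no overlap in either. *Sar1b*, *Dgat2* and *Mogat2* differed by 1.68 ± 0.71, 1.83 ± 0.74 and 0.89 ± 0.41 and did not pass, nor did *Gpam* (-1.47 ± 0.71), *Lpin1* (-0.60 ± 0.67), *Apob* (0.09 ± 1.06) or *Agpat2* (-0.04 ± 0.60). No member was called without ileal sham replicate 1 or 2, ileal SBR-vehicle replicate 3 or 4, or duodenal sham replicate 1 or 3, *Dgat1* was called as well without duodenal SBR-vehicle replicate 1, and without the libraries that stood apart *Gpat3* stayed at 3.18 but was not called and *Dgat2* was at 1.13. For the WUSTL0717 effect, none of the 10 differed (limma, 4 of 15923 genes called, 0.0251%). At an unadjusted p under 0.05 there were *Dgat2* alone (-2.11 ± 0.69, adjusted p = 0.964) and 530 of all genes (3.33%). *Agpat2*, with 1.40 in duodenum and 1.45 in ileum, differed by -0.05 ± 0.55, and the interval from -1.20 to 1.10 does not show the effects to be equal. The other 8 genes differed by -0.68 to 0.97. Without the libraries that stood apart *Sar1b* was at 2.05 and *Dgat1* at -1.15.

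A further 50 genes of fatty acid uptake, triglyceride isozymes, lipoprotein assembly, lipid droplets and triglyceride hydrolysis were read beside the 10. In the resected duodenum, WUSTL0717 raised *Cd36*, a fatty acid translocase, by 2.81 ± 0.43 (7.03-fold, adjusted p = 0.0196), the only 1 of 11 uptake and activation genes called. With the replicate block, with the unmoderated test and without the libraries that stood apart, it was not called, and in the last of these no gene of 15093 was. All 11 had values above 0, with a median of 1.23, and 7 lay wholly above vehicle, whereas over all 15093 genes 8158 were above 0, the median was 0.04 and 2.11% lay wholly above. Among the 7 were the acyl-CoA synthetases *Acsl3* (1.88 ± 0.40, adjusted p = 0.108) and *Acsl1* (1.50 ± 0.40, adjusted p = 0.29). The other isozymes of the synthetic steps had a median of -0.14, and none of the 9 tested was called or lay wholly to 1 side. In the remaining lists *Fitm2*, which serves droplet formation, was at 1.84 ± 0.34 (adjusted p = 0.0555), the droplet coat protein *Plin2* was at 2.38 ± 0.50 (adjusted p = 0.101) and *Lpcat3*, which remodels phospholipids, at 2.06 ± 0.48 (adjusted p = 0.172). Values lay above and below 0 in 5 and 4 droplet genes (median 0.28), 8 and 5 assembly genes (median 0.16) and 7 and 0 hydrolysis genes (median 0.41). Against sham, the treated duodenum had 7 of the 49 tested genes called, all higher: *Cd36*, *Acsl3*, *Acsl5*, *Fabp2*, *Plin2*, *Cidec* and *Lpcat3*, from 1.94 for *Cidec* to 3.45 for the intestinal fatty acid binding protein gene *Fabp2*. Of all genes 0.749% were called higher there. None of the 7 was called with the replicate block, with the unmoderated test or without the libraries that stood apart, and 0 to 5 were when 1 library was left out. Centring and library weights each called 15 of the 49, the 7 among them, where they called 393 and 1124 of all 15093 genes.

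In the ileum, *Acsl3* rose by 1.81 ± 0.28 with WUSTL0717 (3.51-fold, adjusted p = 0.0427), and *Aadac*, a lipase of the endoplasmic reticulum, fell by 2.27 on the log2 scale after SBR (SE 0.36, adjusted p = 0.0181) and was at 1.54 ± 0.33 with WUSTL0717 against vehicle (adjusted p = 0.284). Neither call was kept with the replicate block or the unmoderated test, and without the libraries that stood apart *Aadac* was called and *Acsl3* was not. Of the 8 triglyceride hydrolysis genes tested, all 8 had values above 0 with WUSTL0717, with a median of 1.03, and none was called, whereas over all 15772 genes 7944 were above 0, the median was 0.00 and 0.0697% were called. The library with high *Alb* held the highest treated value in each of these genes except *Aadac*. It was at 8.21 for *Mgll* and 4.96 for *Pnpla3*, against 5.91 to 6.35 and 2.36 to 3.28 in the other treated libraries. Against sham, the treated ileum had 8 of 50 genes called, all higher, from 1.55 for *Lpin3* to 3.36 for the droplet fusion gene *Cidec*. Apart from *Cidec* and *Lpin3* these were *Acsl3* (3.30), *Plin2* (2.08), *Gpat4* (2.05), *Lpin2* (1.98), *Abhd5* (1.87) and *Dbi* (1.74). Of all genes 1.66% were called higher. The replicate block called 1 of the 8 (*Acsl3*), the unmoderated test 0 and the fit without the library with high *Alb* 6 (not *Cidec* or *Lpin2*). Library weights called 13 of the 50, and 764 of all 15772 genes. When 1 library was left out, 1 to 7 of the 8 were called. *Gpat4*, *Lpin2* and *Lpin3* are isozymes of the members *Gpat3* and *Lpin1*, which were at -0.35 ± 0.28 and 0.40 ± 0.48 in the same comparison (-0.43 and -0.14 without the library with high *Alb*) and were not called.

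In the liver, 25 of the 50 were called after SBR, 19 higher and 6 lower, where 41.9% of all genes were called, 37.4% higher and 4.47% lower. After centring the split turned over, to 11 higher and 14 lower, and 17 of these 25 were called. Of the 25, the call was kept with the replicate block by 19, with the unmoderated test by 20 and without the libraries that stood apart by 24. Library weights called 39 of the 50, and 10462 of all 15901 genes. The droplet genes *Cidec* and *Plin2* rose by 2.74 ± 0.22 (6.66-fold, adjusted p = 3.36e-08) and 1.08 ± 0.18 (2.12-fold, adjusted p = 0.000117), and *Cd36* by 1.18 ± 0.20 (2.27-fold, adjusted p = 9.44e-05). The droplet protein gene *Fitm1* fell by 1.20 on the log2 scale (adjusted p = 3.74e-05), and *Aadac* by 0.91 (adjusted p = 0.000176), *Acsl1* by 0.65 (adjusted p = 0.00296), *Slc27a5* by 0.63 (adjusted p = 0.0013) and *Slc27a2* by 0.48 (adjusted p = 0.00408). The last 3 activate fatty acids or bile acids in hepatocytes. With WUSTL0717 against vehicle 5 of the 50 genes rose and none fell, where 4.1% of all genes were called. The replicate block called 3 of these 5, the fit without the libraries that stood apart 3 (*Fitm1*, *Slc27a2* and *Slc27a5*), and 1 to 5 were called when 1 library was left out. Centring called 18 of the 50, 17 higher and 1 lower, and library weights 10, the 5 among them in both cases. Over all 15901 genes they called 3133 and 2819. The unmoderated test called none of them and no gene in all. *Fitm1* rose by 1.27 ± 0.18 (2.41-fold, adjusted p = 0.00234), *Acsl1* by 0.63 ± 0.16 (adjusted p = 0.0307), *Slc27a5* by 0.60 ± 0.14 (adjusted p = 0.0209), *Slc27a2* by 0.55 ± 0.12 (adjusted p = 0.0178) and *Mgll*, a monoacylglycerol lipase, by 0.52 ± 0.13 (adjusted p = 0.0334). The first 4 of these were also among the genes lower after SBR, and both contrasts share the SBR-vehicle libraries.

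**Figure D5:**
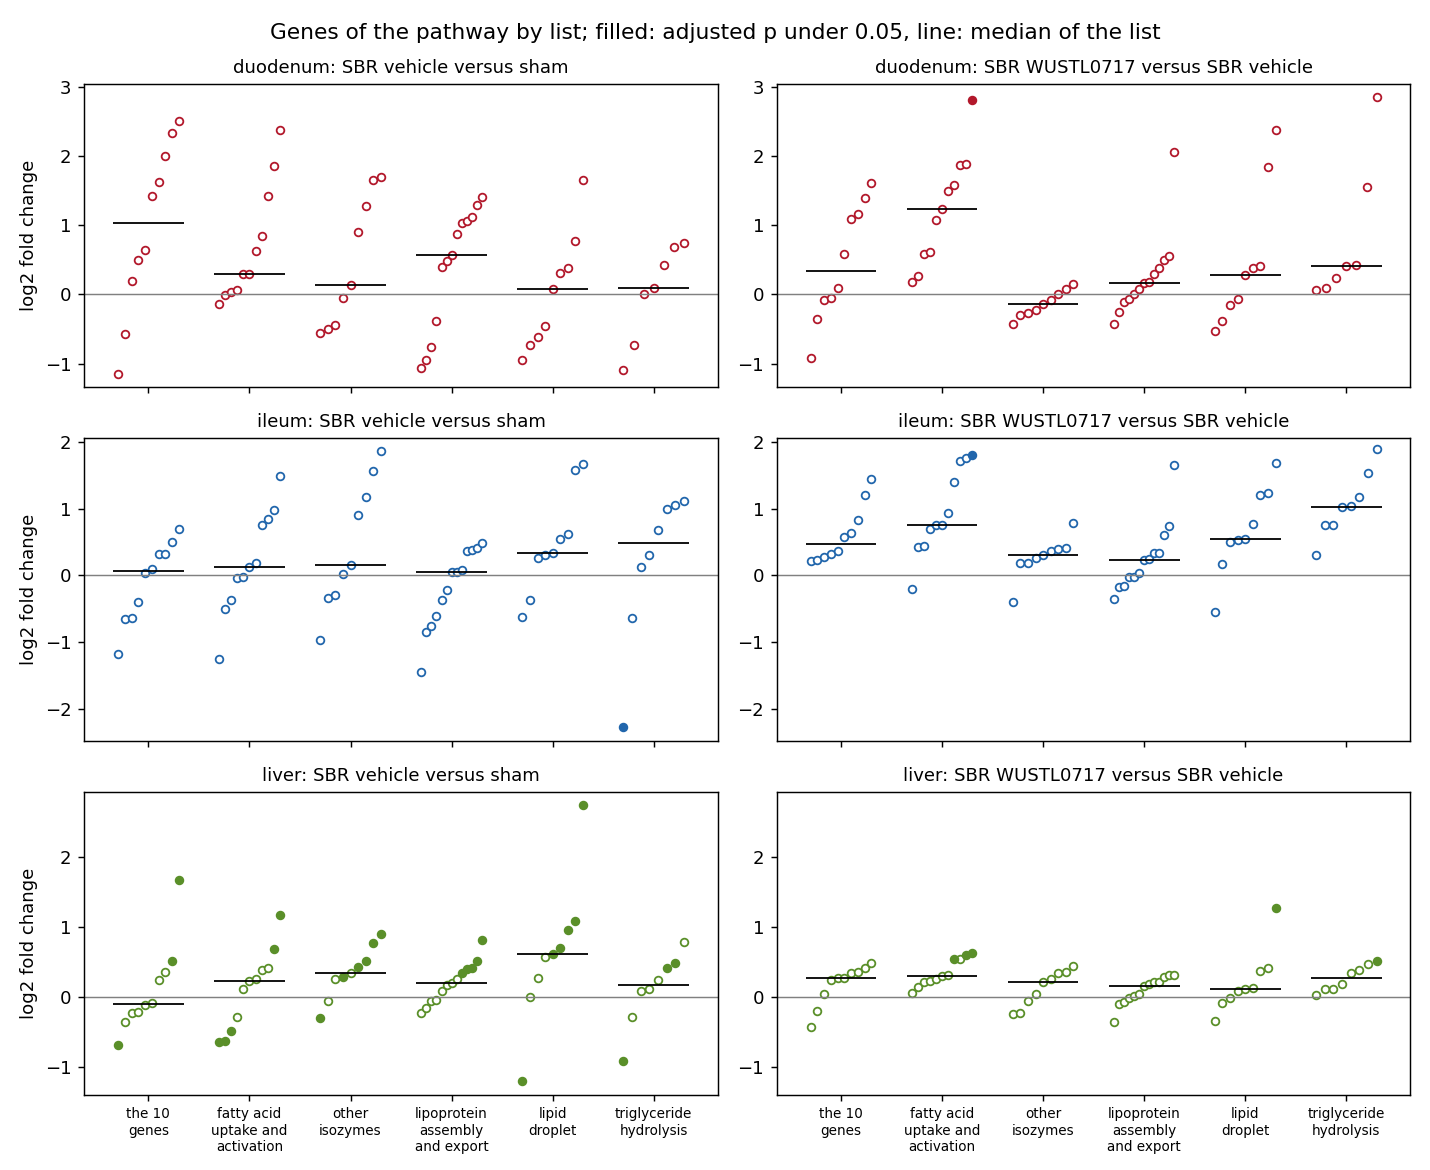
Log2 fold change (y axis) of the 10 genes and of the 5 other lists of the pathway in duodenum, ileum and liver, for SBR-vehicle against sham, left, and SBR-WUSTL0717 against SBR-vehicle, right; one point per gene, a line at the median of each list, filled where the adjusted p is under 0.05 (limma). The 10 genes have a median of 1.04 in duodenum after SBR, the 11 uptake and activation genes one of 1.23 in duodenum with WUSTL0717, and most filled points are in liver after SBR.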

How the data were processed

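RNA was sequenced after ribosomal RNA removal and random-hexamer priming. The submitters' processing notes name STAR 2.7.9a1, featureCounts 2.0.32 and the GRCm38 build. By the study's methods, unique unambiguous reads were counted, TPM values were loaded, all-zero genes were dropped, and log2 values were batch corrected with ComBat. The authors deposited the resulting log2 values as 1 table of 15958 genes in 40 libraries, from -1.688 to 18.421, with 2752 values below 0. ComBat can change the location and spread of each gene in each batch, so levels were not compared between gut and liver or between genes. Read totals are not given in the sources used here, so depth and its precision are unknown. All value columns were matched to a library (0 left unmatched).

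Genes with a mean of at least 1 in a tissue were fitted with limma 3.58.1 in R 4.3.3 with a variance trend, all 3 groups of a tissue together, or the 6 intestinal groups for contrasts between duodenum and ileum. Two-sided p-values were adjusted by Benjamini-Hochberg over all genes tested, and genes were called at an adjusted p under 0.05, over 14 comparisons. Errors are SE of the fit unless SD is named, and intervals are at 95%. Exact permutation tests, counts and figures used Python 3.11.15, numpy 2.4.6, pandas 2.3.3, scipy 1.17.1 and matplotlib 3.10.9. The fits were tested on simulated data. All 10 genes were named in the comparisons, with *Abca1* as a reference and, of 50 other pathway genes, those called or with small p-values. The members and lists were chosen with earlier results of these data known. Alternatives were no filter, log2(TPM + 5), centring each library on its median gene, library weights, a replicate block, an unmoderated two-sample test as in the study's methods, and leaving out each library in turn. Leaving out together the 7 libraries that stood apart was chosen after seeing the data. Motifs were searched over 250 bases before each start.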

Additional observations from a re-analysis of the deposited data

Results flagged for a closer look

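A search for a single library far from the rest of its group covered 70 combinations of gene and group and found 5. A library counted where its gap to the nearest one, as a share of the group's range, passed Dixon's critical value at the 95% level, which by its construction chance alone passes in about 1 in 20 groups. No excess over that was tested. *Gpam* accounted for 3 of them. It was at 3.44 in duodenal SBR-WUSTL0717 replicate 3, against 4.41 to 4.44 in the others, at 5.27 in ileal SBR-vehicle replicate 2, against 6.34 to 6.39, and at 4.83 in liver SBR-vehicle replicate 2, against 5.81 to 6.35. *Sar1b* was at 6.59 in that same liver library, which has low hepatocyte genes and the lowest median over all genes in its group, against 7.21 to 7.72 in the rest. *Mogat2* was at 4.46 in duodenal SBR-WUSTL0717 replicate 2, against 4.88 to 4.95.

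The response of *Gpat3* to SBR differed by 3.14 log2 units between duodenum and ileum by the test of the difference. For 3 other genes the values after SBR had opposite signs in a pair of tissues with no overlap between groups in either, and no such test was passed. Opposite signs also occurred in further members, but with an overlap in at least 1 tissue of the pair. *Mttp* was at 1.43 in duodenum and -0.65 in ileum, and *Dgat1* at 1.62 and -1.18, with no overlap between groups in either region, and the test of these differences did not pass (adjusted p = 0.185 and 0.111, limma). *Dgat2* was at 2.33 in duodenum and -0.69 in liver, with no overlap in either, and this difference was not tested because the tissues lie in different batches.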

How the results depend on the processing

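Of 1206 alternative values for the 75 member values that passed the test, had an unadjusted p under 0.05, did not overlap between groups or passed after centring, 1075 kept their direction and side of the threshold, 76 lost a call, 48 gained one and 7 changed sign. Of the 65 other member values, 25 changed sign under at least 1 alternative and 4 were called under at least 1. In liver after SBR, *Apob* (-0.09) became 0.05 with library weights, 0.01 without SBR-vehicle replicate 2 and 0.00 without the libraries that stood apart (-0.13 to 0.01 leaving out 1 library), and *Dgat1* became -0.06 after centring. After centring, *Dgat1* and *Mttp* in treated resected liver against sham became -0.01 and -0.05, and *Gpat3* between the regions with WUSTL0717 became 0.07. Counts of the 10 genes called moved as follows. After centring they were 2 in duodenum after SBR, 5 in treated duodenum against sham, 6 in liver after SBR, 5 in liver with WUSTL0717 and 2 for the difference of the SBR effect. With library weights they were 4, 5 and 2 in duodenum after SBR, treated duodenum against sham and treated ileum against sham, 2 in liver with WUSTL0717, 4 in treated liver against sham, 5 between regions in sham and 4 for the difference of the SBR effect. The log2(TPM + 5) scale gave 1 in treated duodenum against sham. The unmoderated test gave 0 in treated duodenum and 0 in treated ileum against sham, and 4 in treated liver against sham. Without the libraries that stood apart there were 0 in treated duodenum against sham, 5 in liver after SBR, 4 in treated liver against sham, 4 between the regions with WUSTL0717 and 0 for the difference of the SBR effect. Over all genes that fit called 0, 8418, 6440, 7295 and 2 in the same order. The cause of these moves was not tested, and the fit without the libraries that stood apart also had fewer libraries.

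Leaving out 1 library at a time gave 0 to 2 calls in duodenum after SBR, 0 to 3 in treated duodenum against sham, 0 to 2 in treated ileum against sham, 3 to 5 in liver after SBR, 1 to 2 in treated liver against sham, 2 to 3, 6 to 9 and 5 to 8 between the regions in sham, SBR-vehicle and SBR-WUSTL0717, and 0 to 2 for the difference of the SBR effect, and 0 in the other comparisons. Correlations of same-numbered libraries ran from -0.32 to 0.45. In 0 of 12 pairs of groups was every one over 0.1, or every library of both groups closest to its own number. Between ileal and duodenal sham all 3 were positive (0.07 to 0.45). There each ileal library was closest to its own number in duodenum, but not each duodenal one to its own in ileum. The numbers were not taken to pair the libraries. With the number as a replicate block the calls were 0 in treated duodenum and 0 in treated ileum against sham and 4 in treated liver against sham, and the other counts of the 10 stayed within 1.5 times. In duodenum after SBR, with WUSTL0717 and in treated duodenum against sham, the block called 0, 8 and 1 of all genes, the unmoderated test 1, 2 and 2 and the fit without the libraries that stood apart 0, 0 and 0, against 0, 39 and 121. In the same ileal comparisons they called 12, 1 and 88, then 5, 1 and 31, then 111, 9 and 227, against 55, 11 and 343. Over all genes, counts with library weights against those given were 2497 against 0 in duodenum after SBR, 85 against 39 with WUSTL0717 there, 1124 against 121 in treated duodenum against sham, 279 against 55 in ileum after SBR, 18 against 11 with WUSTL0717 there, 764 against 343 in treated ileum against sham, 10462 against 6663, 2819 against 652 and 8387 against 4580 in the 3 liver comparisons, 5549 against 2331 between regions in sham, and 1989 against 12 and 8 against 4 for the differences of effects. After centring they were 96, 393, 3133, 3120 and 60 in duodenum after SBR, treated duodenum against sham, liver with WUSTL0717, treated liver against sham and the difference of the SBR effect. Centring also moved the split of higher and lower calls, from 1078 and 7990 to 2637 and 2311 between the regions after SBR, from 1136 and 7759 to 2522 and 2215 with WUSTL0717, from 610 and 1721 to 1177 and 843 in sham, from 229 and 423 to 1830 and 1303 in liver with WUSTL0717 and from 4436 and 144 to 1700 and 1420 in treated liver against sham. The difference of the SBR effect gave 22 genes on the log2(TPM + 5) scale, 2 without the libraries that stood apart and 12 as given. Depth could not be weighed because read totals were not given.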
